A study of Mus musculus with 6 samples.

Results

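Phosphatases set how long an activating signal lasts in a T cell. The 9 genes described here encode such enzymes: the tyrosine phosphatases Ptpn6, Ptpn11, Ptprc, Ptpn22, Ptpn2 and Ptpn7, the lipid phosphatase Inpp5d, and the dual-specificity phosphatases Dusp2 and Dusp5. They were taken by name from a table of 55450 genes. The rule itself uses no measured value but was written with earlier results of these data known. All 9 passed the filter on low values.

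The libraries held RNA of regulatory T (Treg) cells, CD4 T cells that express Foxp3 and restrain immune responses. MC38, a colon carcinoma line of the mouse, had formed tumours of about 8 mm diameter, and the cells were sorted out of these. Of the 6 libraries, 3 came from Tim-3 deficient Treg cells and 3 from Tim-3 sufficient Treg cells, which the deposited table calls KO and WT. Tim-3, encoded by Havcr2, is an inhibitory receptor. All mice were of the C57BL/6 strain. The labels name neither the allele, nor the driver of any Cre, nor the age. No label ties a library to a mouse, and p-values therefore cover the spread among 6 libraries, some of which may be technical. The comparison asks what changes in tumour Treg cells that lack Tim-3.

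When the T cell receptor is engaged, the kinases Lck and Zap70 place phosphates on tyrosines, and the signal runs on through ERK and PI 3-kinase. Ptpn6 (SHP-1) and Ptpn11 (SHP-2) are drawn by their SH2 domains to phosphorylated tails of inhibitory receptors. Inpp5d (SHIP-1) removes the lipid that PI 3-kinase makes. Dusp2 and Dusp5 act in the nucleus on ERK and are themselves induced by activating signals. Ptprc (CD45) is not only a brake, since it also frees Lck from its inhibitory phosphate.

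The tyrosine and dual-specificity enzymes share a catalytic loop in which a cysteine carries the phosphate and an arginine follows after 5 other residues. The codons of this loop are shown because they are what joins genes of otherwise different build. Capitals mark the cysteine and arginine codons, and each run is 5′ to 3′ on the coding strand, from GENCODE mouse release 21 transcripts on GRCm38. The Dusp2 run lies at chr2:127337613-127337642 and the Dusp5 run at chr19:53540948-53540977, both on the plus strand. Those of the other genes shown are divided by an intron.
Ptpn6: gtgcatTGCagcgctggcatcggcCGCacg
Ptpn11: gttcacTGCagcgctgggattggcCGGaca
Ptprc: gtgcacTGCagtgctggtgttgggCGTaca
Ptpn22: attcacTGCagtgccggctgcggaAGGaca
Ptpn7: gttcacTGCagtgcagggatcggcCGGacc
Dusp2: gtgcacTGCcaagctggcatctctCGCtca
Dusp5: gtccacTGCgaagctggggtttccCGGtcg
Ptpn6 and Ptpn11 were identical at 24 of these 30 bases, and Dusp2 and Dusp5 at 22 of 30, while Dusp5 and Ptpn22 shared 14. Inpp5d, which acts on a lipid through another fold, had no such loop in its coding sequence. Ptpn2 did hold the loop, and its codons are not reported here. Among 10252 tested protein-coding genes, 2.79% held the pattern of histidine, cysteine, 5 residues and arginine.

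Values are log2(TPM + 1), where TPM, a transcript's share of the library, is a level per transcript length scaled to a fixed total, so levels of different genes can be set side by side. Libraries are called deficient C1, deficient D and deficient dated, and sufficient A1, sufficient B1 and sufficient dated. "Dated" marks the 1 library in each group whose column name holds a date-like mark, and the other 4 are called undated. Between 11470 and 12681 genes reached 1 TPM, and read depth is unknown, since TPM keeps no counts. Foxp3 was present in all libraries, at 5.56, 5.48 and 5.44 in deficient C1, D and dated, and at 5.52, 5.21 and 4.82 in sufficient A1, B1 and dated. Macrophage transcripts varied within each group: the 12 listed markers summed to 1090, 15.7 and 18.9 TPM in deficient C1, D and dated, against 105, 672 and 22.5 TPM in sufficient A1, B1 and dated. The deficient dated library also stood apart in the Y-linked genes Kdm5d, Uty and Eif2s3y, which were listed at 0 there and lay at 2.61 or higher in the other 5 libraries. Ddx3y, also Y-linked, was at 0.014 there, and Xist, the RNA of the inactive X chromosome, was at 2.01, against at most 0.029 in the other 5. The groups were thus not balanced for these sex-linked transcripts, and the part of this in the group differences was not tested. Havcr2 itself was lower in each deficient library (3.54, 4.27 and 2.55) than in each sufficient library (5.70, 5.64 and 4.49), without passing the test over all genes (log2 fold change -1.83 ± 0.48 SE, limma adjusted p = 0.211). Its limma adjusted p was 0.0148 in the fit that blocks on the date mark, 0.0307 with library weights and 0.0258 without both dated libraries, all past the threshold. In bulk libraries, fewer cells that express a gene and less RNA of it per cell cannot be told apart.

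The levels of the 9 genes spanned a wide range. Ptprc was the highest, with a median of 475.9 TPM over the 6 libraries. Its mean log2 level lay above that of 96.8% of the 12155 genes tested. By median, Ptpn22 followed at 269 TPM, Dusp5 at 115 TPM, Ptpn2 at 92.7 TPM and Ptpn6 at 78.2 TPM. Inpp5d had a median of 56.9 TPM, Dusp2 46.1 TPM, Ptpn7 29.5 TPM and Ptpn11 4.73 TPM. By mean log2 level, Ptprc stood above Ptpn22, Ptpn22 above Dusp5, and Ptpn7 above Ptpn11 in 6 of 6 libraries. The neighbours between them did not keep their order: Dusp5 lay above Ptpn2 in 3 of 6 libraries, Ptpn2 above Ptpn6 in 4, Ptpn6 above Inpp5d in 5, Inpp5d above Dusp2 in 4 and Dusp2 above Ptpn7 in 4, with mean gaps smaller than the SD of the gap. Ptpn6, the SHP of blood cells, thus lay far above the ubiquitous Ptpn11 in each library.

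Of the 9 genes, Ptpn6 alone separated the groups without overlap, and it was lower in Tim-3 deficient cells. Dusp5 and Dusp2 differed by -1.36 and -1.38 among the undated libraries, but by 0.33 and -0.09 between the dated ones. Ptpn22, Ptpn7 and Inpp5d had smaller negative differences, and Ptpn2, Ptpn11 and Ptprc had differences near 0. None of the 9 passed in limma at an adjusted p under 0.05, a threshold that 0.206% of all tested genes passed, and 0.074% as lower. At an unadjusted p under 0.05 there were 2 of the 9, Ptpn6 and Dusp5, both lower, against 4.69% of all tested genes lower and 6.98% higher by that rule. The groups did not overlap at 1 of the 9, lower in deficient libraries, against 17.6% of all tested genes in either direction and 6.73% lower. The median log2 fold change was -0.25 over the 9 genes and 0.09 over all tested genes. Centring each library on the median of its tested genes moved every fold change by -0.13, and the values below are given without that shift.

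**Figure D1:**
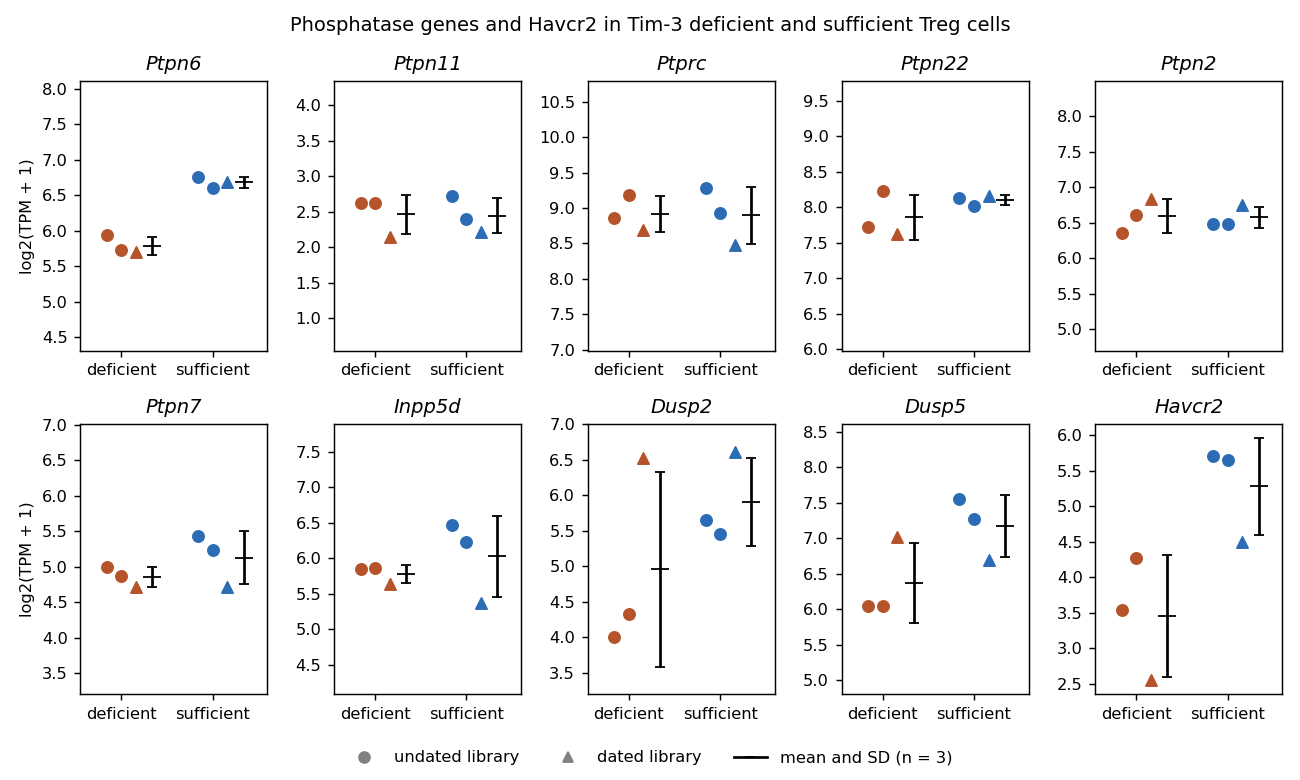
Values of the 9 phosphatase genes and Havcr2 in log2(TPM + 1), 1 point per library, deficient left and sufficient right, with the group mean and SD (n = 3) in black; each panel spans the same number of log2 units. Ptpn6 lies at 5.70 to 5.94 in deficient and at 6.60 to 6.76 in sufficient libraries, while Dusp2 and Dusp5 of the dated libraries lie close together.

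Ptpn6 (ENSMUSG00000004266.15, GRCm38 chromosome 6, 124720707 to 124738714, minus strand) encodes SHP-1, the tyrosine phosphatase that many inhibitory receptors of lymphocytes recruit. It had 5.94, 5.73 and 5.70 in deficient C1, D and dated, against 6.76, 6.60 and 6.69 in sufficient A1, B1 and dated. The highest deficient library lay below the lowest sufficient one, and the dated library of each group lay nearer to its own group than to the other. The mean was 5.79 ± 0.13 in deficient and 6.68 ± 0.08 in sufficient libraries (SD, n = 3 each), or 54.5 ± 5.09 TPM and 102 ± 5.64 TPM. The log2 fold change was -0.89 ± 0.15 (SE), a ratio of 0.539, with a 95% interval from limma of -1.24 to -0.55. Its unadjusted p of 0.000348 ranked 52 among 12155 genes, and its adjusted p of 0.0805 did not pass. The spread of Ptpn6 within groups was smaller than that of most genes, with 3.46% of tested genes below it.

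The lower Ptpn6 level was seen in both kinds of library. The dated kind has only 1 library a group, so a test of agreement between the kinds had little means to find a disagreement. The difference was -0.85 among the undated libraries and -0.99 between the dated ones, and the test of their difference gave an unadjusted p of 0.646 in limma (adjusted p = 0.982). With the date mark as a block in limma, Ptpn6 passed at an adjusted p of 0.0267, as 1 of the 9, where 1.97% of all genes passed. It also passed with quantile normalization (adjusted p = 0.0419), 1 of the 9 where 0.313% of all genes passed. With library weights it passed at 0.00728, as 1 of 2 of the 9 beside Dusp5, where 7.81% of all genes passed. Over all alternatives its adjusted p ran between 0.00728 and 0.46, and its log2 fold change between -1.03 and -0.80.

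Ptpn6 is also made by macrophages and B cells, so their markers are set beside it. In deficient D, 7 of the 12 macrophage markers were listed at 0, among them Adgre1, Csf1r and C1qa, and Ptpn6 was 5.73 there. Without deficient C1 and sufficient B1, the libraries with the highest macrophage sums, the Ptpn6 difference was -1.01. Its limma adjusted p there was 0.46, and no gene passed in that fit. The 7 listed CD8 T and NK cell markers summed to 86.7 TPM in deficient D and to 14.5 to 46.4 TPM in the other libraries. Of the B cell markers, Ms4a1 was at 0 in all 6 libraries, while the sum of the 7 listed markers was 582 to 793 TPM in deficient and 338 to 614 TPM in sufficient libraries. Those of the 11 listed Treg and T cell markers summed to 10861 to 14559 TPM in deficient and 14038 to 19074 TPM in sufficient libraries. The part of these differing sums in the Ptpn6 result was not tested. An antisense gene within Ptpn6, Gm20531, had at most 0.37 in any library, and no label says that strand was kept.

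Ptpn11 (SHP-2; ENSMUSG00000043733.14, chromosome 5, 121130533 to 121191397, minus strand) is the close relative of Ptpn6 that also passes on growth factor signals. It had 2.62, 2.62 and 2.15 in deficient C1, D and dated, against 2.72, 2.41 and 2.22 in sufficient A1, B1 and dated. The groups overlapped fully, with a log2 fold change of 0.02 ± 0.29 (SE) and a 95% interval of -0.64 to 0.68.

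Set against each other within a library, the SHP pair differed between the groups about as much as Ptpn6 alone. Ptpn6 exceeded Ptpn11 by 3.32, 3.11 and 3.55 in deficient C1, D and dated, and by 4.04, 4.19 and 4.47 in sufficient A1, B1 and dated, on the log2 scale. The groups did not overlap, at a difference of -0.91, and the exact permutation test gave a two-sided p of 0.1, the smallest that 3 against 3 libraries allow. Ptpn6 minus Ptprc, a comparison of 2 genes of all blood cells, gave -2.93, -3.46 and -2.98 in deficient C1, D and dated and -2.52, -2.33 and -1.79 in sufficient A1, B1 and dated. Here, too, the groups stayed apart, at a difference of -0.91 (exact two-sided p = 0.1).

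**Figure D2:**
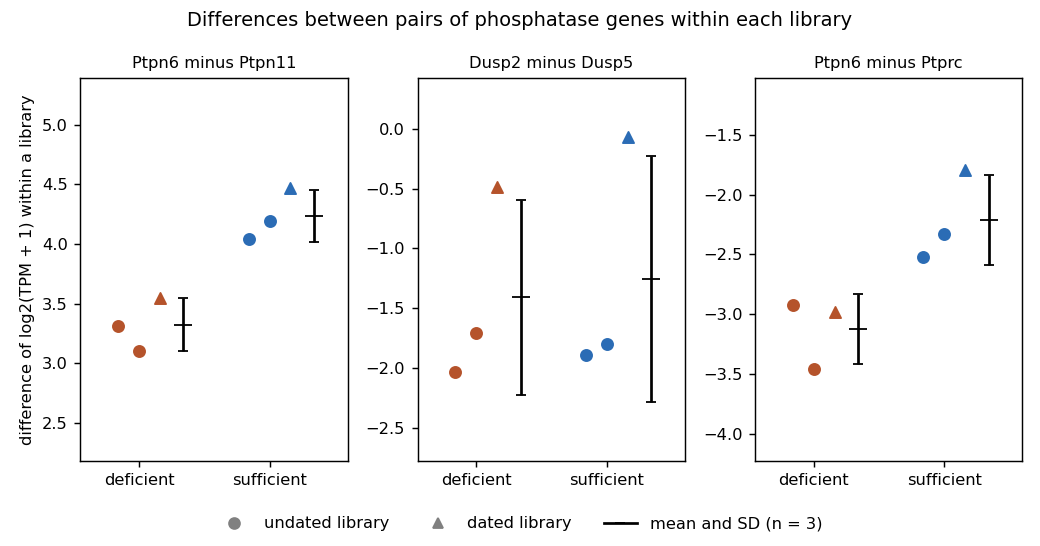
Difference of log2(TPM + 1) between 2 genes of the same library, 1 point per library (triangles: dated), deficient left and sufficient right, with the group mean and SD (n = 3) in black. Ptpn6 minus Ptpn11 and Ptpn6 minus Ptprc are lower in each deficient than in each sufficient library, whereas Dusp2 minus Dusp5 overlaps.

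Ptprc (CD45; ENSMUSG00000026395.16, chromosome 1, 138062861 to 138175708, minus strand) had 8.86, 9.19 and 8.68 in deficient C1, D and dated, against 9.28, 8.93 and 8.48 in sufficient A1, B1 and dated. The dated library was the lowest of each group, and the groups overlapped. The log2 fold change was 0.02 ± 0.23 (SE), with a 95% interval of -0.50 to 0.54. A gene value cannot show which of the exons that mark CD45 isoforms were used. A130071D04Rik overlaps Ptprc on the same strand, at 2.84 to 4.73, and may share its reads.

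Ptpn22 (ENSMUSG00000027843.13, chromosome 3, 103859795 to 103912247, plus strand) encodes the phosphatase that works with the kinase Csk to turn off Lck and Zap70. It had 7.72, 8.22 and 7.62 in deficient C1, D and dated, against 8.13, 8.01 and 8.16 in sufficient A1, B1 and dated. Deficient D held the highest value of all and the other deficient libraries the lowest, so the groups overlapped (log2 fold change -0.25 ± 0.18 SE, limma adjusted p = 0.622). The difference was -0.10 among undated and -0.53 between dated libraries. With library weights its sign turned, at 0.02. Gm43065 (1.45 to 3.84) and Gm15472 (1.45 to 2.81) overlap Ptpn22 on the same strand and may share its reads.

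Ptpn2 (ENSMUSG00000024539.17, chromosome 18, 67665511 to 67724595, minus strand) acts on JAK kinases, STAT proteins and Lck. It varied little, with 6.35, 6.61 and 6.83 in deficient C1, D and dated and 6.48, 6.49 and 6.75 in sufficient A1, B1 and dated. The dated library was the highest of each group. Its log2 fold change was 0.02 ± 0.18 (SE), with a 95% interval of -0.38 to 0.43, so a difference of the size seen for Ptpn6 lay outside its interval.

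Ptpn7 (ENSMUSG00000031506.11, chromosome 1, 135132700 to 135145317, plus strand) encodes a phosphatase of blood cells that binds and inactivates ERK and p38. It had 4.999, 4.86 and 4.72 in deficient C1, D and dated, against 5.44, 5.23 and 4.71 in sufficient A1, B1 and dated. All values but that of the sufficient dated library followed the groups, and the log2 fold change was -0.27 ± 0.23 (SE, limma adjusted p = 0.685). It was -0.40 among undated libraries and 0.0039 between the dated ones.

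Inpp5d (SHIP-1; ENSMUSG00000026288.14, chromosome 1, 87620312 to 87720507, plus strand) had 5.85, 5.86 and 5.64 in deficient C1, D and dated, against 6.47, 6.23 and 5.38 in sufficient A1, B1 and dated. The sufficient dated library was the lowest of all 6, so that the groups overlapped. The log2 fold change was -0.25 ± 0.28 (SE, limma adjusted p = 0.773), at -0.50 among undated and 0.26 between dated libraries. Without sufficient A1 it was -0.02, and without the sufficient dated library -0.57.

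**Figure D3:**
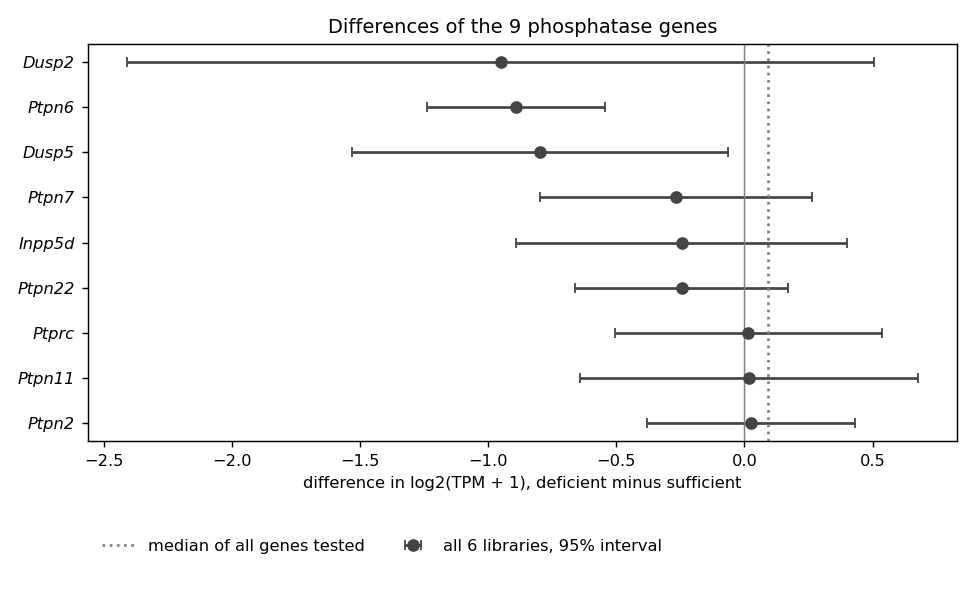
Log2 fold change (deficient minus sufficient) of each of the 9 genes, with its 95% interval from limma; the dotted line is the median of all tested genes at 0.09. The intervals of Ptpn6 (-1.24 to -0.55) and Dusp5 (-1.53 to -0.07) lie below 0, although neither passed after adjustment.

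Dusp5 (ENSMUSG00000034765.6, chromosome 19, 53529109 to 53542431, plus strand) encodes a nuclear phosphatase that acts on ERK and is made in response to it. It had 6.05, 6.04 and 7.02 in deficient C1, D and dated, against 7.55, 7.26 and 6.69 in sufficient A1, B1 and dated. The deficient C1 and D libraries were the lowest of all, while the deficient dated library lay above the sufficient dated one. The mean was 6.37 ± 0.56 in deficient and 7.17 ± 0.44 in sufficient libraries (SD, n = 3 each), with a log2 fold change of -0.80 ± 0.32 (SE), an unadjusted limma p of 0.0363 and an adjusted p of 0.386.

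Dusp2 (PAC-1; ENSMUSG00000027368.6, chromosome 2, 127336159 to 127338376, plus strand) is an immediate early gene of activated T cells. It had 4.01, 4.33 and 6.53 in deficient C1, D and dated, against 5.65, 5.46 and 6.62 in sufficient A1, B1 and dated. In TPM, these were 15.1, 19.2 and 91.3 in the deficient libraries and 49.3, 43.0 and 97.2 in the sufficient ones. Both dated libraries were above all undated ones. Dusp2 thus had the widest range of the 9 genes, 2.61 log2 units, and a spread within groups above that of 96.3% of tested genes. Its log2 fold change was -0.95 ± 0.63 (SE, limma adjusted p = 0.585). Leaving out deficient dated moved this value to -1.74, and leaving out sufficient dated moved it to -0.60. Omitting deficient C1 gave -0.48 and omitting deficient D gave -0.64.

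Dusp5 differed by -1.36 among the undated libraries and by 0.33 between the dated ones, and Dusp2 by -1.38 and -0.09. A fit with a term for the difference between these differences, added after the values were seen, gave 1.69 ± 0.28 (SE) for Dusp5, with an unadjusted limma p of 0.000442 and an adjusted p of 0.215. It gave 1.29 ± 0.35 (SE) for Dusp2, with an unadjusted limma p of 0.00665 and an adjusted p of 0.546. None of the 9 passed there after adjustment, where 0.0165% of all genes did. Inpp5d was the other one of 3 of the 9 at an unadjusted limma p under 0.05 in that fit (0.04, adjusted p = 0.799), where 6.1% of all genes reached that level. The dated part rests on 1 library a group, and the deficient dated library is also the one without Y-linked transcripts. The sufficient dated library did have them, with Eif2s3y at 6.57. Within the deficient group, date mark, library and the missing Y-linked transcripts cannot be told apart. Without both dated libraries, limma called Dusp5 (adjusted p = 0.0131) and Dusp2 (0.0287) lower, as 2 of the 9, where 2.02% of the genes tested there were called. Ptpn6 had an adjusted p of 0.0554 in that fit.

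**Figure D4:**
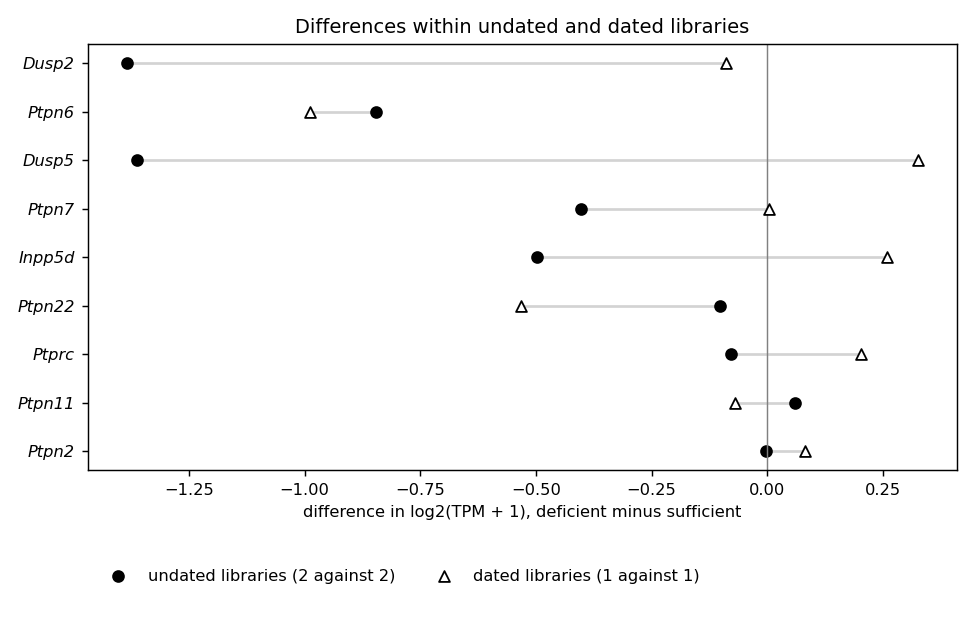
Difference in log2(TPM + 1), deficient minus sufficient, of each gene among undated libraries (filled circles, 2 against 2) and between dated libraries (open triangles, 1 against 1). Dusp2 and Dusp5 lie near -1.4 among undated libraries and at -0.09 and 0.33 between dated ones, while Ptpn6 has -0.85 and -0.99.

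Dusp2 minus Dusp5 within a library did not separate the groups. It was -2.04, -1.71 and -0.49 in deficient C1, D and dated and -1.89, -1.80 and -0.07 in sufficient A1, B1 and dated, a difference of -0.15 (exact permutation two-sided p = 0.7). The dated libraries of both groups stood apart from the undated ones in this measure.

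The promoters of this inducible pair are shown because both genes stood lower in the same libraries. The windows run from 250 bases before to 50 bases after the start, from RefSeq on GRCm38.p6. Capitals mark matches to 6 motifs searched on both strands: the cyclic AMP element TGACGTCA, the AP-1 site TGANTCA, the EGR site GCGGGGGCG, the ETS site CCGGAAGT, the E-box CACGTG, and the CArG box, the site of serum response factor. The Dusp2 window is chr2:127335909-127336208 and the Dusp5 window chr19:53528895-53529194, both on the plus strand.
Dusp2: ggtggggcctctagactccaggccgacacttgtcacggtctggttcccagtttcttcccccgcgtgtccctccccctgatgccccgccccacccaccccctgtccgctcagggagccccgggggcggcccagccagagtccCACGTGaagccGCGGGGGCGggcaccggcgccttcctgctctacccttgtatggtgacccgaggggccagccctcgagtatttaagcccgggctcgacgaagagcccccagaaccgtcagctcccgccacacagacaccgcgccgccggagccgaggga
Dusp5: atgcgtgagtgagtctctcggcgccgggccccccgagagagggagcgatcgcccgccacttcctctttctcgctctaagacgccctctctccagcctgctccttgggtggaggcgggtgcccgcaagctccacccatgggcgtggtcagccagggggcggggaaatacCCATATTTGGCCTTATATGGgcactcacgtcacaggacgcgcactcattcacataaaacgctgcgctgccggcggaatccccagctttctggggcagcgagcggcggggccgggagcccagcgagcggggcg
The Dusp5 window held 2 CArG boxes side by side, which begin at positions -82 and -72, with the start base as 0, while 1.63% of 32851 promoter windows held at least 1. The Dusp2 window held no CArG box but an EGR site at -98 and an E-box at -109, motifs found in 2.91% and 7.15% of windows. No match of the other motifs was found in either window, and a match of letters is not a bound site.

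Nearest profiles were sought among tested protein-coding genes, with predicted genes left out. The measure was the root mean square difference of profiles centred on their own mean over the 6 libraries. By it, Cbx3 (0.083 log2 units), Msi2 (0.085) and Ssbp3 (0.087) were the genes most like Ptpn6. Kank3 (0.085), Coro2a (0.13) and Slc15a3 (0.18) were most like Dusp5. Arf6 (0.17), Agfg1 (0.22) and Yrdc (0.24) were most like Dusp2, all with their highest values in the 2 dated libraries. None of the 9 neighbours passed in limma.

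The wider phosphatase families had values in both directions and no gene past the threshold over all genes. At an unadjusted limma p under 0.05, 6.98% of all tested genes were higher and 4.69% lower, which is the background of the counts below. Of 15 tested tyrosine phosphatases outside the 9, 2 were higher and 2 lower at an unadjusted limma p under 0.05, with a median log2 fold change of 0.04. Ubash3b (Sts-1), which acts on Zap70, had 3.21, 3.77 and 3.25 in deficient C1, D and dated and 4.75, 4.39 and 4.68 in sufficient A1, B1 and dated, a log2 fold change of -1.20. Ptprs, a receptor-type phosphatase, stood at -1.10 and Ptpn4 at 0.81. The groups did not overlap at Ubash3b, and its difference was -1.08 among undated and -1.43 between dated libraries. With the date mark as a block, limma's adjusted p was 0.0476 for Ubash3b, in a fit where 1.97% of all genes passed. There, 6 other genes named from these lists also came past the threshold: Dusp10 (0.0347), Lilrb4a (0.0104), Rasa1 (0.0369), Rasa3 (0.0493), Fos (0.0280) and Ier2 (0.0378). The genes named from the lists had been picked for their small p in the same data. Gm48611, a gene that overlaps Ubash3b on the same strand, may share its reads. Of 14 dual-specificity phosphatases outside the 9, 1 was higher at an unadjusted p under 0.05, and the median was 0.11. It was Dusp10, which acts on p38 and JNK, at 1.13 (6.24, 6.60 and 5.42 in deficient C1, D and dated, against 5.18, 5.01 and 4.70 in sufficient A1, B1 and dated). Dusp1 had 0.45 and Dusp16 -1.12. Among 9 other lipid phosphatases the median was 0.06, with Inpp5b at -0.81 and Inpp4a at -0.32.

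Receptors and adaptors that bring the phosphatases to the membrane, or work beside them, were also divided. Of 13 tested receptors, Slamf6, a SLAM family receptor that can bind SHP-1 and SHP-2, rose by 1.27 ± 0.16 (SE, limma adjusted p = 0.0281), and it was the only gene of the 11 lists of related genes past the threshold. It had 7.22, 7.57 and 7.25 in deficient C1, D and dated, against 6.00, 6.11 and 6.13 in sufficient A1, B1 and dated, with no overlap. The call was lost without deficient C1 (adjusted p = 0.0650), deficient D (0.145), sufficient A1 (0.154), sufficient B1 (0.164) or sufficient dated (0.0613), at log2 fold changes of 1.15 to 1.33, and with libraries centred on the median (0.0831). It was also lost with no filter on low values (0.153), without a mean-variance trend (0.110), and without both sufficient B1 and deficient C1 (0.335). Gm37065, which overlaps Slamf6 on the opposite strand, had 3.20 in deficient D and 1.59 to 2.18 in the other libraries. Lilrb4a, a myeloid and lymphoid receptor with inhibitory motifs, had 2.32 (limma adjusted p = 0.0562). Over the alternatives its limma adjusted p ran between 0.00248 and 0.335. Lilrb4a overlaps the gene Gm49339 on the same strand, and reads may be divided between them. Gm49339 had 8.47, 8.91 and 8.94 in deficient C1, D and dated, against 7.15, 7.20 and 6.06 in sufficient A1, B1 and dated. Tigit, an inhibitory receptor of Treg cells, had -0.58. The median of these receptors was -0.04. In a list of adaptors that also held the kinase Csk and the galectin Lgals1, 15 tested genes had a median of -0.14. Sit1, which binds SHP-2, had 0.70, Dok2 0.43 and Ptprcap, a partner of CD45 that overlaps Coro1b, -0.39.

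The kinases and chains on which these enzymes act had mostly negative values. Of 15 proximal T cell receptor genes, 11 had negative values (median -0.22), as had 4846 of all 12155 tested genes. At an unadjusted limma p under 0.05, 4 were lower and 1 higher, against 4.69% and 6.98% of all tested genes, and none passed the threshold. The median of the list was -0.24 among undated and -0.03 between dated libraries. The Treg and T cell markers, which share Cd3d, Cd3e and Cd4 with it, had 9 of 11 negative values (median -0.33), at -0.60 among undated and 0.09 between dated libraries, and their part in these values was not tested. Zap70 had 6.50, 6.99 and 6.66 in deficient C1, D and dated and 7.73, 7.40 and 7.32 in sufficient A1, B1 and dated, a log2 fold change of -0.77. Lck had -0.50 and Cd3d -0.51. The median of 19 Ras and ERK pathway genes was -0.05, with the Ras inactivators Rasa1 at -1.12, Rasa3 at 0.80 and Rasal3 at -0.26. Rasa1 overlaps Ccnh on the opposite strand.

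Genes induced through ERK, the kinase that Dusp2, Dusp5 and Ptpn7 inactivate, had values of both signs. Of 14 tested genes, 5 were higher and 2 lower at an unadjusted limma p under 0.05, against 6.98% and 4.69% of all tested genes, with a median of -0.14. Fos had 9.18, 9.12 and 8.94 in deficient C1, D and dated and 8.49, 8.55 and 8.13 in sufficient A1, B1 and dated, a log2 fold change of 0.69. Ier2 had 0.82 and Egr3, at a low level, -1.25. Fos and Ier2 had positive differences both among undated libraries (0.63 and 0.92) and between dated ones (0.81 and 0.62). Fosl1, named after its value was seen, had the largest fold change of the list at 3.68. It had 6.28 and 5.30 in deficient C1 and D but 1.55 in deficient dated, against 0.28, 1.17 and 0.63 in sufficient A1, B1 and dated. No gene of this list, Fosl1 included, passed the threshold over all genes.

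The remaining pathways were near the median of all genes. The 14 genes of JAK kinases, STAT proteins and cytokine receptors had a median of 0.02. Of these, the receptor gene Ifngr1 had 0.58, Stat4 0.62 and Tyk2 -0.64. The 16 PI 3-kinase genes had a median of 0.02, with Pik3ip1, an inhibitor of the kinase, at 1.63, and the catalytic subunits Pik3ca at -0.96 and Pik3cd at 0.57. The 8 p38 and JNK pathway kinases had a median of -0.03, with Mapk11 at 0.93, Map2k6 at 0.87 and Map2k7 at -0.41. None of these 9 genes passed in limma.

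**Figure D5:**
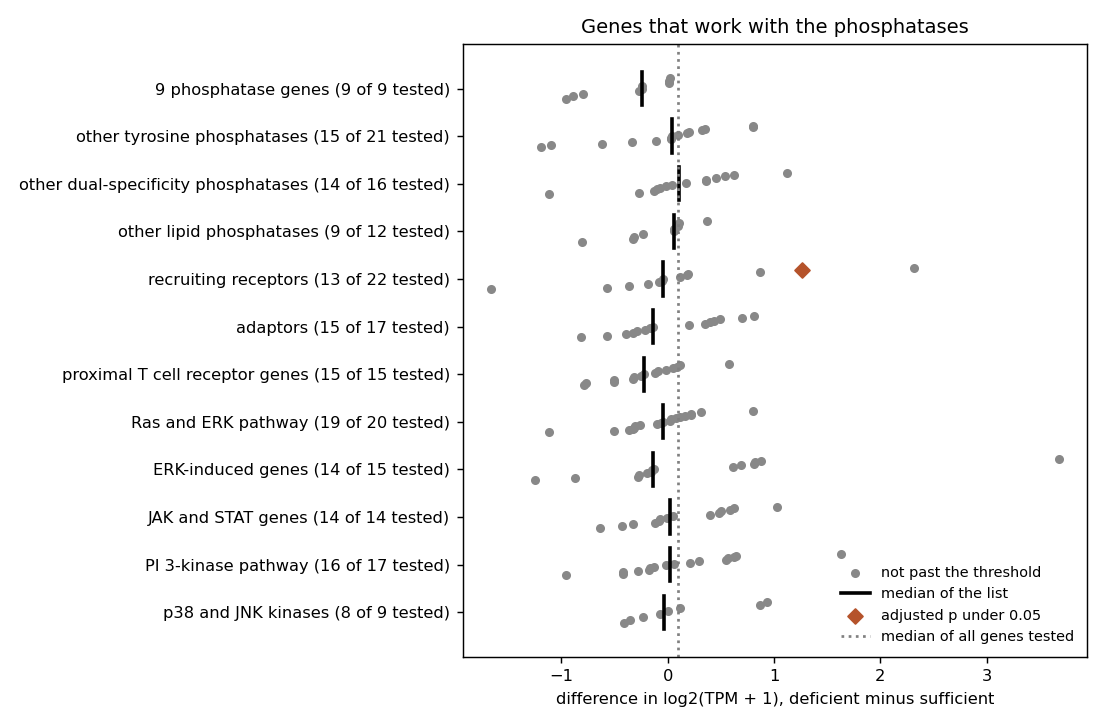
Log2 fold change (deficient minus sufficient) of every tested gene of the 9 phosphatase genes and of 11 lists of related genes, 1 point per gene, with the median of each list as a black line and that of all tested genes (0.09) dotted. Slamf6, the diamond at 1.27, is past the threshold.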

How the data were processed

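RNA was sequenced from 6 sorted Treg libraries with Nextera XT kits and 75 bp read pairs, per the labels' protocols. The submitters' processing notes list the tools STAR, RSEM and limma, giving no version, and the builds mm10 and GRCm38. The authors deposited log2 values. Undoing the log and taking off 1 gave totals of 999999 to 1000001 a library, which makes the unit log2(TPM + 1). Depth is unknown and no counting interval was computed. All 55450 identifiers matched GENCODE mouse release 21, and 27 altered symbols were replaced by the annotated ones.

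Genes at 1 TPM or more in at least 3 of 6 libraries (12155) were compared with limma 3.58.1 (R 4.3.3; eBayes with a trend, no covariate), two-sided, with Benjamini-Hochberg adjustment over all of them at 0.05. The script was tested on simulated data. Differences within a library were tested by exact permutation of libraries in scipy 1.17.1. The 9 genes and the lists were chosen with earlier results of these data known. 1 planned comparison within libraries and 1 gene of the lists are not reported here. Named genes were the 9, Havcr2, list genes past the threshold and the 3 list genes of smallest p, besides the 3 nearest profiles for the 3 of the 9 with smallest p. Alternatives covered filter, normalization, pseudocount, variance model, library weights, date mark and leaving out libraries. Those without sufficient B1 and deficient C1 and with an interaction term were chosen after seeing the data. Python 3.11.15, pandas 2.3.3, Biopython 1.88 and matplotlib 3.10.9 were used.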

Additional observations from a re-analysis of the deposited data

How the results depend on the processing

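The number of genes past the threshold in limma, 25, was 1 with no filter on low values, 38 with quantile normalization, 4 without a mean-variance trend, 949 with library weights, 240 with the date mark as a block, 235 without both dated libraries and 0 without sufficient B1 and deficient C1. Leaving out 1 library gave 0 to 128. Of the 9 phosphatase genes, none passed in the reported fit, 1 (Ptpn6) with quantile normalization, 1 (Ptpn6) with the date mark as a block, 2 (Ptpn6 and Dusp5) with library weights and 2 (Dusp2 and Dusp5) without both dated libraries. None passed when any 1 library was left out. Ptpn6, Ptpn7, Inpp5d, Dusp2 and Dusp5 kept a negative sign in all 18 alternatives. Dusp2 ran between -1.74 and -0.48, moving to -1.74 without the deficient dated library and to -0.48 without deficient C1.

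Genes with differences near 0 turned sign. Ptpn11 had -0.050 with quantile normalization, -0.12 with centred libraries, -0.082 without sufficient B1 and deficient C1, and -0.0973 to 0.17 when 1 library was left out. Its single values there were -0.061 without deficient C1, -0.063 without deficient D, -0.0045 without sufficient B1 and -0.0973 without sufficient dated. Ptpn2 had -0.080 with quantile normalization, -0.11 with centred libraries, -0.0035 without both dated libraries, -0.092 without deficient dated, -0.020 without sufficient A1 and -0.018 without sufficient B1, and up to 0.15 without deficient C1. Ptprc had -0.12 with centred libraries, -0.078 without both dated libraries, -0.12 without deficient D and -0.19 without sufficient dated, and up to 0.21 without sufficient A1. Ptpn22 had 0.017 with library weights. Dusp2 minus Dusp5 was 0.0065 on the log2(TPM + 10) scale and ran between -0.61 and 0.44 with 1 library left out. The turns with centred libraries follow from the scaling, which moved every log2 fold change down by 0.13. The cause of the other changes was not tested. No paired analysis was possible because the columns carry no replicate numbers. TPM values carry no depth, so precision rests on 3 libraries a group.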
